A study of Mus musculus with 22 samples.

Results

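Aminoacyl-tRNA synthetases join each amino acid to its tRNA. The 33 genes described here are those of the enzymes outside the group linked to dominant neuropathy, together with the scaffolds that hold part of them in a complex and the enzymes that work in mitochondria. They were taken by symbol from the 38924 gene IDs in the tables: 7 cytosolic synthetases of the multisynthetase complex, 7 cytosolic synthetases outside it, 3 complex scaffolds and 16 mitochondrial synthetases. The list was set by gene name and not by a measured value, but it was chosen with earlier results of these data known. All 33 were counted well enough to be tested, among 16974 genes in all.

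Protein synthesis runs in the cytosol and, on separate ribosomes, in mitochondria, and nuclear genes supply the synthetases of both. In most cases the mitochondrial enzyme has a gene of its own, whose name ends in 2, while the lysine gene Kars serves both compartments. Cytosolic synthetase genes are known targets of ATF4, a transcription factor of the integrated stress response, and changes in synthetases are known causes of inherited disease of peripheral nerve and brain.

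The study measured spinal cord RNA of mice with the E196K change in Yars, the gene of the cytosolic tyrosine enzyme. Every mouse was 7 months old and of the strain background B6N;B6J. WT mice (6 libraries) had no E196K allele, HET mice (6 libraries) had the genotype E196K/+ and HOM mice (10 libraries) had E196K/E196K. The tissue was whole cord, so neurons and glia were measured together, and fewer cells of a type cannot be told apart from less RNA per cell. The labels do not tie each library to its own animal, so the p-values below measure the spread between these libraries.

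The libraries held 24.45 M to 42.81 M counts. Summed markers of spinal cord cells were present in each genotype, from 17080 to 20340 TPM (a level scaled to transcript length and to the library total) for oligodendrocytes and from 89.67 to 119.2 TPM for motor neurons in WT, and no marker gene was at 0 in all libraries of a genotype. HOM library 3 stood apart, with Schwann cell markers summing to 3690 TPM against at most 207.9 TPM in the other HOM libraries, fibroblast markers to 305.5 TPM against at most 34.31 TPM, and blood markers to 9597 TPM against at most 3842 TPM. Title numbers begin with 39992 (5 HOM and 1 WT libraries), 40411 (3 HOM, 2 WT and 1 HET) or 40412 (2 HOM, 3 WT and 5 HET), and the labels do not explain them. For the members described in most detail, values without that library and within title numbers are given beside the comparison of HOM with WT.

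In WT cord the cytosolic enzymes were mostly transcribed at a higher level per length than the mitochondrial ones. The median gene of the 14 cytosolic synthetases had 41.69 TPM and that of the 16 mitochondrial synthetases 12.21 TPM. Sars, which charges serine tRNA, was the highest cytosolic gene at 278.5 TPM (SD 21.1, n = 6, 255.7 to 317.4). Nars, for asparagine, followed at 202.8 TPM (SD 4.27, 198.5 to 210.6) and Kars, for lysine, at 80.47 TPM (SD 4.43, 71.99 to 84.43), and the libraries of these 3 genes did not overlap. The remaining 11 cytosolic genes formed a nearly even slope from Farsb, a subunit of the phenylalanine enzyme, at 51.25 TPM down to Lars. Lowest were Farsa, the other phenylalanine subunit, at 25.55 TPM (SD 1.45), Tars, for threonine, at 24.52 TPM (SD 1.11, 22.97 to 26.28) and Lars, for leucine, at 21.47 TPM (SD 1.46, 18.84 to 22.82). Of the 13 pairs of neighbours in the cytosolic order, 9 overlapped over WT libraries.

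**Figure D1:**
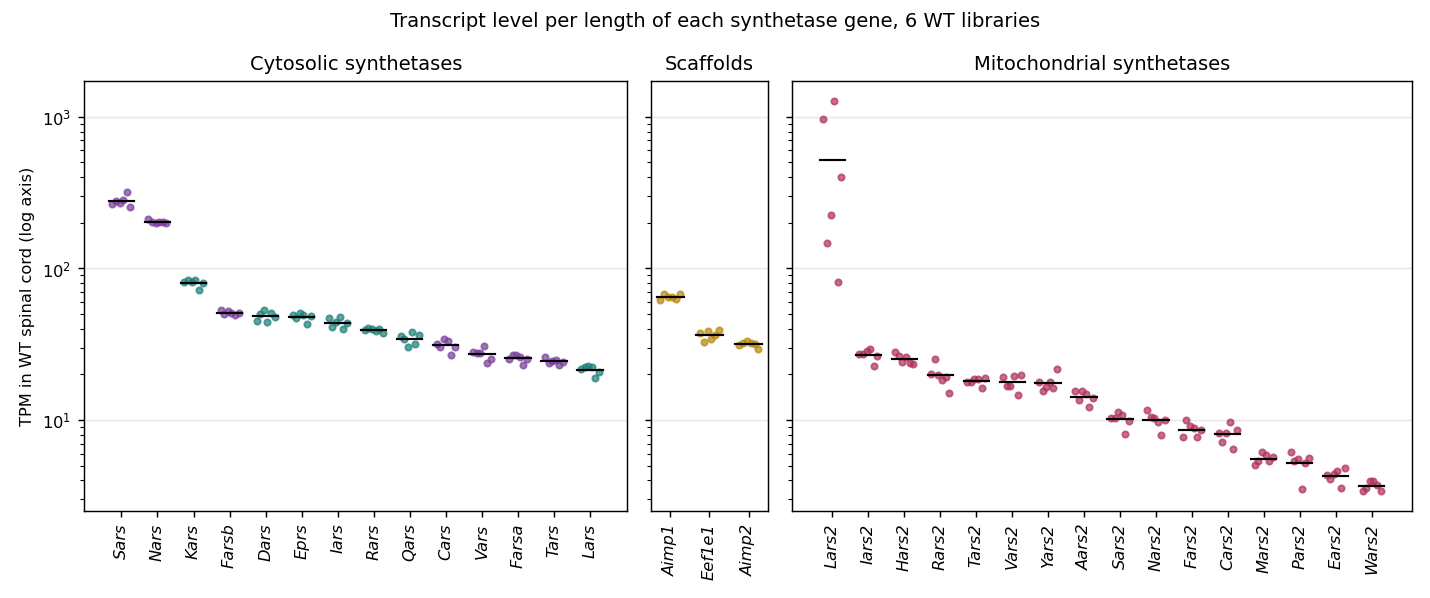
TPM of each gene in the 6 WT libraries on a log axis, with 1 point per library and a bar at the mean, in falling order within each panel. In the cytosolic panel green marks members of the multisynthetase complex and purple those outside it. Sars and Nars libraries lie between 198.5 and 317.4 TPM, while the mitochondrial genes other than Lars2 lie between 3.39 and 29.24 TPM.

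Among mitochondrial genes Lars2, the leucine enzyme, was listed highest and varied far more than any other member, at 516.2 TPM (SD 491, n = 6) with libraries from 81.78 to 1280 TPM. Iars2, for isoleucine, had 26.9 TPM (SD 2.22, 22.86 to 29.24) and Hars2, for histidine, 25.39 TPM (SD 1.93, 23.35 to 28.23), and these neighbours overlapped. The lowest were Pars2, for proline, at 5.245 TPM (SD 0.916), Ears2, for glutamate, at 4.307 TPM (SD 0.435) and Wars2, for tryptophan, at 3.677 TPM (SD 0.261). These 3 could not be put in a firm order, since each overlapped the next, and 12 of the 15 mitochondrial neighbour pairs did so. The scaffolds lay in the cytosolic range, with Aimp1 at 64.94 TPM (SD 2.42), Eef1e1 at 36.5 TPM (SD 2.46) and Aimp2 at 31.64 TPM (SD 1.25). Across WT libraries the median coefficient of variation was 6.30% for cytosolic and 10.6% for mitochondrial genes.

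Pairs of enzymes for the same amino acid show the difference between the compartments directly. Sars was 28.0 times as high as Sars2 in WT (SD 5.62, n = 6), and Nars 20.5 times as high as Nars2 (SD 2.59). The other ratios of WT TPM were far smaller: 3.90 for Cars over Cars2 (cysteine), 2.04 for Rars over Rars2 (arginine), 1.64 for Iars over Iars2, 1.55 for Vars over Vars2 (valine) and 1.36 for Tars over Tars2. Both phenylalanine subunits stood above the single mitochondrial gene Fars2, at 2.96 times for Farsa and 5.96 times for Farsb. Each of these cytosolic genes was above its partner in every library of every genotype. The leucine pair was the exception, with Lars below Lars2 in all libraries and a WT ratio of 0.0959 (SD 0.0834). The listed level of Lars2 moved with a ribosomal RNA signal, described below, which limits the reading of this ratio.

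Homozygous cord was compared with WT for the question of how the E196K genotype bears on the other enzymes that charge tRNA. One member changed: Cars, the cytosolic cysteine enzyme, rose in HOM. Of all genes tested, 0.0943% passed at an adjusted p under 0.05 in this comparison, 16 genes. Small differences of the same sign ran through most of the cytosolic genes, as 12 of the 14 had a higher fitted level in HOM, with a median log2 fold change of 0.057. Over all genes 53.7% were higher and the median was 0.007. Without HOM library 3 the cytosolic median was 0.067.

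Cars (ENSMUSG00000010755) works outside the multisynthetase complex. In CPM (counts scaled to library size, a measure for comparing 1 gene between libraries), the 6 WT libraries had 38.92, 37.65, 40.06, 40.25, 38.13 and 37.67. The 10 HOM libraries had 45.46, 44.99, 41.92, 45.05, 45.21, 42.51, 42.79, 46.69, 44.88 and 44.06 CPM. Every HOM library lay above every WT library. A full separation of this kind, HOM above WT, was seen for 0.118% of all genes. The WT mean was 38.78 CPM (SD 1.16, n = 6) and the HOM mean 44.35 CPM (SD 1.51, n = 10), a log2 fold change of 0.19 (SE 0.0303, 95% interval 0.13 to 0.26, adjusted p = 0.00215 by edgeR's quasi-likelihood test with Benjamini-Hochberg adjustment over all genes). Without HOM library 3 it was 0.20 (adjusted p = 0.00118), and within the 3 title numbers the log2 ratio of means was 0.19, 0.18 and 0.20 in their numerical order.

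Vars, which charges valine tRNA, had the next largest difference among the cytosolic genes. WT libraries ran from 42.95 to 54.37 CPM with a median of 49.05, and HOM libraries from 50.37 to 57.14 CPM with a median of 53.9. All 10 HOM libraries were above the WT median, but only 5 were above the highest WT library. The log2 fold change was 0.14 (SE 0.0457) with an adjusted p of 0.643 by the same edgeR test, and within title numbers the ratio was 0.02, 0.17 and 0.15. The first of these, in 39992, rests on 1 WT library. Without HOM library 3 the difference was 0.13 (adjusted p = 0.63).

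The other genes outside the complex lay closer to WT. Farsa had a log2 difference of 0.07 (SE 0.0283), with WT libraries from 23.9 to 25.51 CPM and HOM libraries from 24.56 to 26.83 CPM. Tars had 0.07 (SE 0.031), with 33.24 to 37.09 CPM in WT and 34.06 to 38.17 CPM in HOM. Sars and Nars, the most highly transcribed pair, had 0.06 each, and Farsb had -0.01. The edgeR adjusted p of these 5 genes was between 0.815 and 0.929. With an unadjusted p under 0.05 and a higher level in HOM there were 4 of 7 genes outside the complex (Cars, Vars, Farsa and Tars) and 1 of 7 within it (Rars), and the share among all genes was 3.62%.

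**Figure D2:**
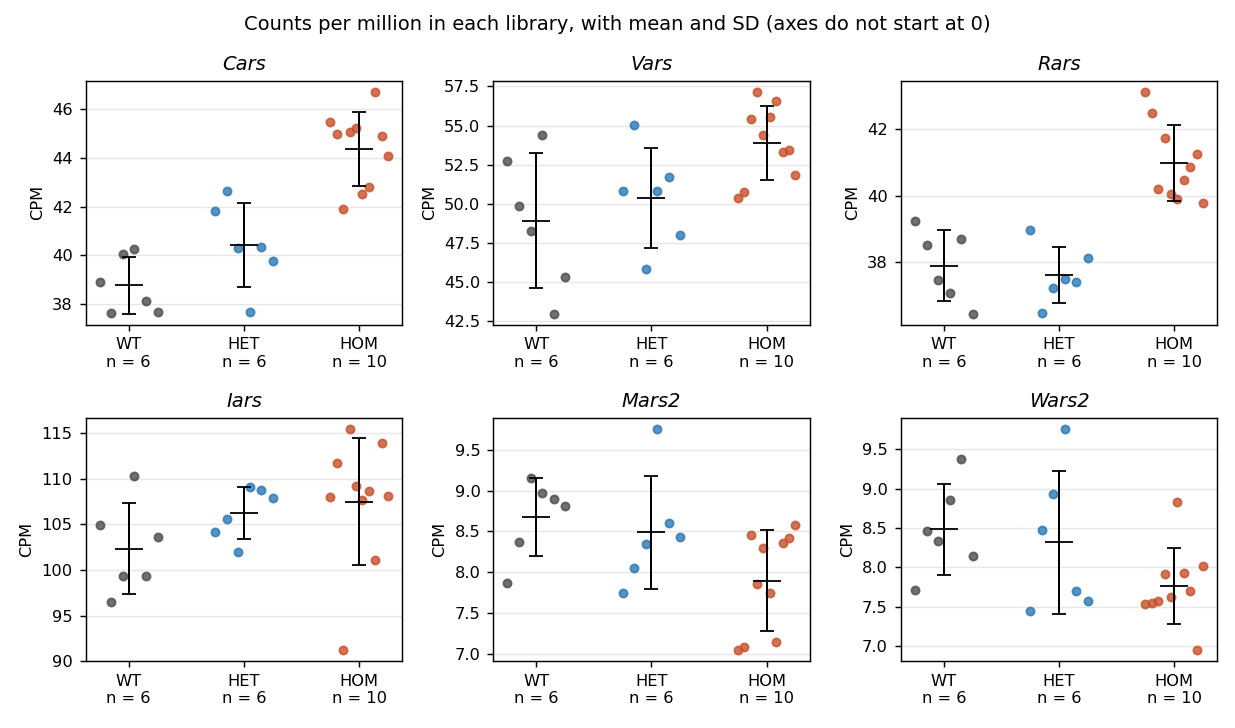
CPM of 6 members in each library, with 1 point per library, a bar at the mean and error bars of 1 SD (WT n = 6, HET n = 6, HOM n = 10); the vertical axes do not start at 0. The HOM libraries of Cars (41.92 to 46.69 CPM) and Rars (39.77 to 43.11 CPM) lie above all WT libraries, while the groups overlap for Vars, Iars, Mars2 and Wars2.

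The multisynthetase complex is an assembly in which synthetases are held together by scaffold proteins. Of its 7 synthetases considered here none passed in HOM against WT, and 6 had a higher fitted level, with a median log2 fold change of 0.040. Rars (ENSMUSG00000018848), which charges arginine tRNA, separated by genotype without passing the test. Its WT libraries had 39.22, 38.52, 37.45, 37.06, 38.68 and 36.45 CPM. Its HOM libraries had 43.11, 42.49, 40.19, 41.74, 40.04, 39.9, 40.47, 40.86, 41.25 and 39.77 CPM. The lowest HOM library was thus above the highest WT library. The log2 difference was 0.11 (SE 0.0261, 95% interval 0.06 to 0.17) with an adjusted p of 0.159 by edgeR's quasi-likelihood test. Over the other settings that adjusted p ran from 0.0773 with DESeq2 to 0.58 with the title number as a covariate, where the estimate was 0.095. In the leave-one-out fits it ran from 0.157 to 0.456. Without HOM library 3 the difference was 0.12 (adjusted p = 0.199), and within title numbers the ratio was 0.08, 0.09 and 0.12.

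Iars, the isoleucine enzyme, came second within the complex. Its level was 96.53 to 110.3 CPM in WT (median 101.5) and 91.19 to 115.5 CPM in HOM (median 108.4). The lowest HOM value was that of library 3, and the other 9 HOM libraries had 101.1 to 115.5 CPM, which overlaps WT. The log2 difference was 0.07 (SE 0.0394, adjusted p = 0.815, edgeR) with that library and 0.10 (SE 0.0308, adjusted p = 0.544) without it, and 0.03, 0.11 and 0.09 within title numbers. The others were Lars (leucine, 0.06), Eprs (glutamate and proline, 0.04), Qars (glutamine, 0.04), Kars (0.01) and Dars (aspartate, -0.04). The 95% intervals of the complex's 7 synthetases reached no lower than -0.12 (Dars) and no higher than 0.17 (Rars).

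The scaffolds Aimp1, Aimp2 and Eef1e1 hold the complex together. Eef1e1 had 15 to 17.9 CPM in WT (median 17.04) and 14.7 to 17.49 CPM in HOM (median 16.28), a log2 difference of -0.05 (SE 0.0435, adjusted p = 0.821, edgeR). Aimp1 had 31.75 to 34.52 CPM in WT and 31.1 to 37.63 CPM in HOM, a log2 difference of 0.02 (SE 0.0388, adjusted p = 0.921). Aimp2 differed by 0.01. In each the genotypes overlapped, and the 95% intervals of all 3 lay between -0.14 and 0.10.

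Of the 16 mitochondrial synthetases none passed in HOM against WT. By sign, 11 were higher and 5 lower, with a median log2 fold change of 0.033. Mars2 and Wars2 were the 2 with an unadjusted p under 0.05, both lower in HOM, a class that held 2.30% of all genes. Mars2, which charges methionine tRNA, had 7.869, 8.372, 9.151, 8.975, 8.894 and 8.809 CPM in WT. In HOM it had 7.04, 7.077, 8.451, 7.853, 8.295, 7.75, 7.141, 8.363, 8.417 and 8.581 CPM. All 10 HOM libraries were below the WT median of 8.851 CPM, yet the ranges overlapped.

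The log2 difference of Mars2 was -0.14 (SE 0.0589, adjusted p = 0.815 by edgeR), and within the title numbers it was -0.02, -0.18 and -0.06. Wars2 ran from 7.716 to 9.379 CPM in WT (median 8.403) and from 6.947 to 8.833 CPM in HOM (median 7.66). Its log2 difference was -0.13 (SE 0.0611, adjusted p = 0.815 by edgeR), with -0.01, -0.04 and -0.23 within title numbers. Without HOM library 3 the differences were -0.15 for Mars2 (adjusted p = 0.704) and -0.12 for Wars2 (adjusted p = 0.769). With Lars2 set aside, the 95% intervals of the other 15 reached from -0.26 (Mars2) to 0.27 (Cars2). Of these 15 intervals, 5 included the value seen for Cars (Cars2, Ears2, Fars2, Pars2 and Sars2).

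The remaining mitochondrial genes lay on both sides of WT. Cars2 had the largest positive difference, 0.12, followed by Fars2 (0.10), Ears2 (0.09), Sars2 (0.09) and Pars2 (0.08). Vars2, Hars2, Yars2 (tyrosine, the mitochondrial partner of the altered enzyme), Aars2 (alanine) and Iars2 each had 0.03 or 0.04. Tars2 and Rars2 were at 0.00, and Nars2 (asparagine) was at -0.04. Yars2 had 11.91 to 15.56 CPM in WT and 12.36 to 15.73 CPM in HOM. The sign of the group median depended on the title number, with 0.07 in 40411 (14 of 16 genes higher) and 0.01 in 40412 (10 of 16), but -0.02 in 39992 (5 of 16), which has 1 WT library. The cytosolic median was 0.01 (8 of 14 genes higher), 0.11 (12 of 14) and 0.03 (13 of 14) in 39992, 40411 and 40412.

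**Figure D3:**
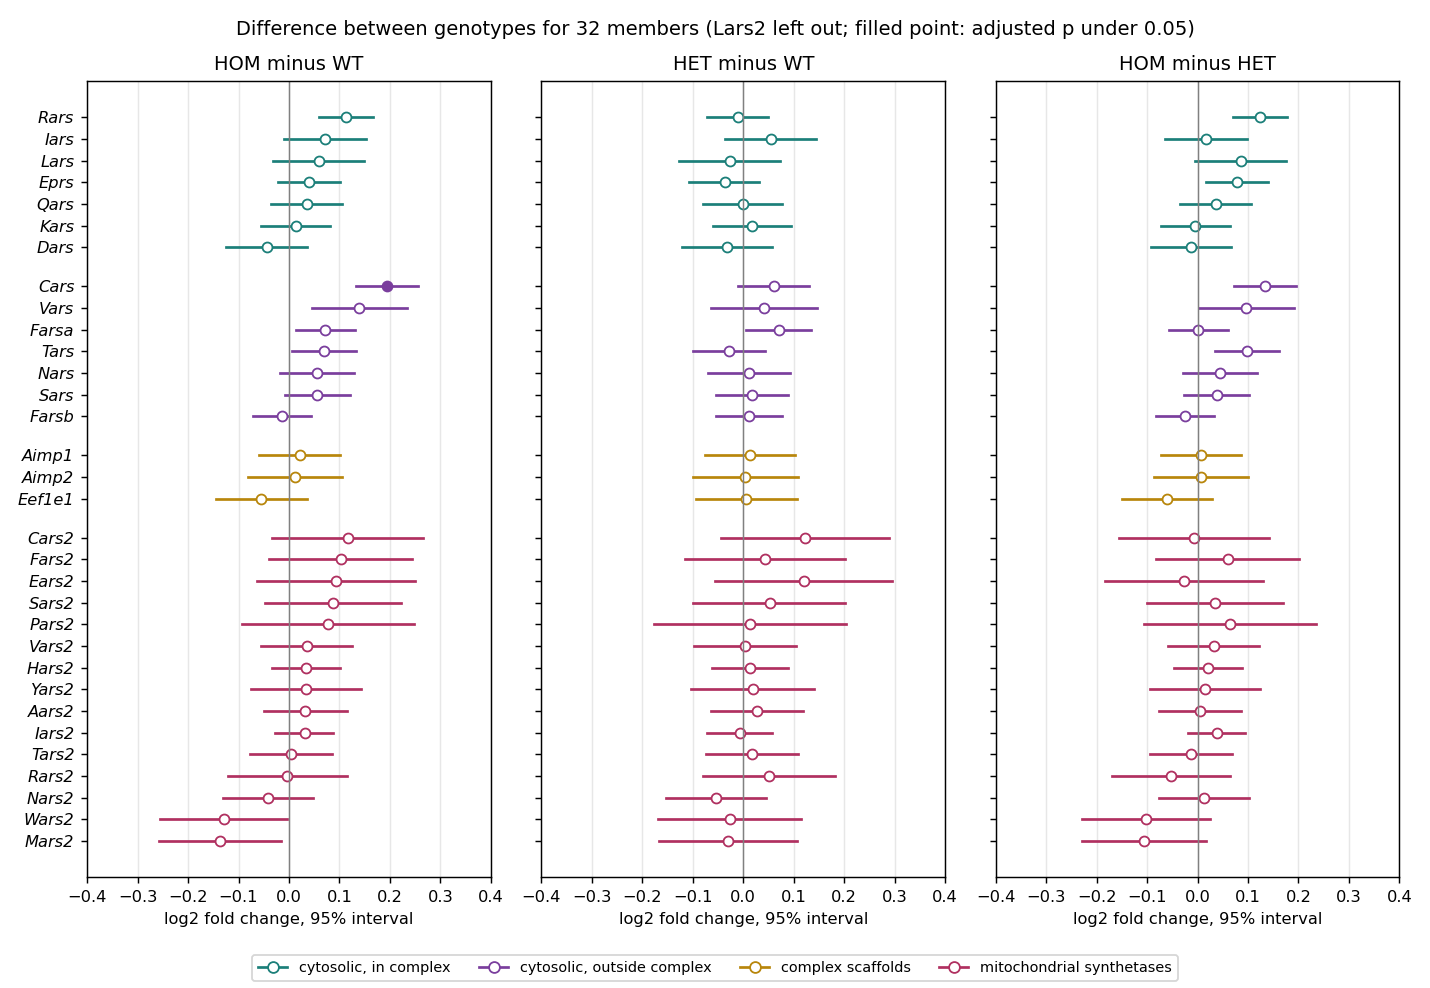
Log2 fold change and 95% interval of 32 members in each of the 3 comparisons, by role (green, cytosolic in the complex; purple, cytosolic outside it; gold, scaffolds; red, mitochondrial); Lars2 is left out because its interval, -1.30 to 0.95 in HOM against WT, would set the scale. The filled point, Cars in HOM against WT at 0.19, is the single member with an adjusted p under 0.05, and 25 of the 32 intervals in that panel span 0.

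Heterozygous cord was compared with WT, since patients with dominant disease carry 1 altered allele. No member differed by the test, and neither did any other gene. In edgeR's quasi-likelihood test 0 of 16974 genes passed (0.00%), and in DESeq2 and limma-trend 0 did, while 287 higher and 291 lower genes had an unadjusted p under 0.05 in edgeR. The median log2 fold change was 0.011 for the 14 cytosolic genes (8 higher), 0.006 for the scaffolds (3 of 3 higher) and 0.015 for the 16 mitochondrial genes (11 higher). The value over all genes was 0.003, with 51.9% higher.

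Farsa and Lars2 had the smallest p-values in this comparison. Farsa had 24.22, 25.51, 23.94, 24.63, 23.9 and 24.13 CPM in WT and 26.12, 24.89, 25.09, 25.26, 26.67 and 25.63 CPM in HET. All 6 HET libraries were above the WT median of 24.17 CPM and 3 were above the highest WT library. The log2 difference was 0.07 (SE 0.0316, adjusted p = 1 by edgeR). Farsa was the 1 member with an unadjusted p under 0.05 and a higher level, against 1.69% of all genes. Lars2 was the 1 such member with a lower level, against 1.71%. Cars had 41.81, 42.64, 40.3, 37.68, 40.33 and 39.78 CPM in HET, a log2 difference from WT of 0.06 (SE 0.0338, adjusted p = 1), and 4 of these 6 libraries were above the highest WT library. No member had all HET libraries above all WT libraries, a pattern of 0.0471% of genes.

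For the members other than Lars2, the 95% intervals in HET against WT ran from -0.18 (Pars2) to 0.29 (Ears2). Among cytosolic genes the widest reach was from -0.13 (Lars) to 0.15 (Vars). Yars2 had 13.41 to 15.16 CPM in HET, a log2 difference of 0.02.

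HOM was then compared with HET, which separates 2 altered alleles from 1. No member passed at an adjusted p under 0.05, against 0.106% of all genes (18 genes). Rars and Cars came closest. The 6 HET libraries of Rars had 38.96, 36.46, 37.23, 37.49, 37.4 and 38.11 CPM, all below the lowest HOM library at 39.77 CPM. Such separation was seen for 0.124% of all genes. The log2 difference was 0.12 (SE 0.0262, 95% interval 0.07 to 0.18) with an adjusted p of 0.0534 by edgeR's quasi-likelihood test. DESeq2 gave 0.00903, leaving out HOM library 10 gave 0.0427, leaving out HOM library 3 gave 0.0628, and the title number as a covariate gave 0.892, where the estimate was 0.09.

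For Cars, 8 of the 10 HOM libraries were above the highest HET library at 42.64 CPM. The log2 difference was 0.13 (SE 0.0302, adjusted p = 0.0717 by edgeR, 0.0118 by DESeq2 and 0.681 with the title number as a covariate). HET libraries thus lay between the other genotypes in mean, at 40.42 CPM (SD 1.72), whereas for Rars the HET mean of 37.61 CPM (SD 0.85) was at the WT mean of 37.9 CPM (SD 1.07). The comparisons share libraries, so these values are given side by side and are not independent.

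Of the cytosolic members, 5 had an unadjusted p under 0.05 and a higher level in HOM than in HET (Rars, Cars, Tars, Eprs and Vars), and the share among all genes was 4.55%. None was lower at that level, against 4.24% of all genes. Tars had 32.94 to 34.59 CPM in HET and 34.06 to 38.17 CPM in HOM, a log2 difference of 0.10 (SE 0.0311, adjusted p = 0.32 by edgeR). The cytosolic median was 0.041 (11 of 14 higher), the mitochondrial median 0.013 (10 of 16) and the scaffold median 0.007 (2 of 3), with 0.005 over all genes. No mitochondrial gene or scaffold had an unadjusted p under 0.05.

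Lars2 needs its own account, because its listed level moved with a ribosomal RNA signal. WT libraries had 2066, 313.7, 465.1, 2710, 187.1 and 861.2 CPM, HET libraries 304.4, 608.7, 270.3, 361, 290.9 and 737.6 CPM, and HOM libraries 952.9, 542.9, 325.6, 2120, 773.4, 2075, 1326, 523, 734.1 and 364.1 CPM. The highest libraries were thus in WT and HOM, and no HET library exceeded 737.6 CPM. By edgeR, HOM differed from WT by -0.18 on the log2 scale (SE 0.538, adjusted p = 0.953), HET from WT by -1.36 (SE 0.616, adjusted p = 1) and HOM from HET by 1.18 (SE 0.566, adjusted p = 0.565). Leaving out single libraries moved the first of these from -0.40 (without WT library 5) to 0.32 (without WT library 4), and it was 0.20 on the log2(TPM + 0.1) scale. Without HOM library 3 it was -0.07. Its sign also depended on the title number. The log2 ratio of HOM to WT means was -1.13 in 39992, which has 1 WT library, 1.75 in 40411 and -1.19 in 40412.

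Gm42418 is a predicted gene that overlaps the ribosomal RNA repeat, and it was chosen for comparison after its values were seen. Its level ran from 6351 to 62650 TPM over the 22 libraries and that of Lars2 from 81.78 to 1280 TPM. Libraries high in one were high in the other, with Pearson's r = 0.983 and Spearman's rho = 0.968 (n = 22, permutation p = 1e-05 for each, the smallest that 100000 permutations can give, adjusted p = 2e-05 and 2.67e-05 over 8 relations). Without WT libraries 4 and 5, the farthest from the median, r was 0.977. Within genotypes r was 0.987 in WT, 0.958 in HET and 0.982 in HOM, and within title numbers it was 0.980, 0.992 and 0.984 (n = 6 to 10, permutation p from 1e-05 to 0.03 and adjusted p from 2e-05 to 0.03 for these 6 values). In HET the rank relation was weaker, with rho = 0.714 (n = 6, permutation p = 0.1). The 8 relations share libraries, and none of these p-values allows for the choice of Gm42418 after its values were seen. They are therefore no test of the relation, and r and rho are given as a description. The ratio of Gm42418 to Lars2 stayed between 48.14 and 87.21. Over the other members r of CPM with Gm42418 ranged from -0.467 (Dars) to 0.620 (Eprs), as a description. What share of the Lars2 counts came from ribosomal RNA was not tested.

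**Figure D4:**
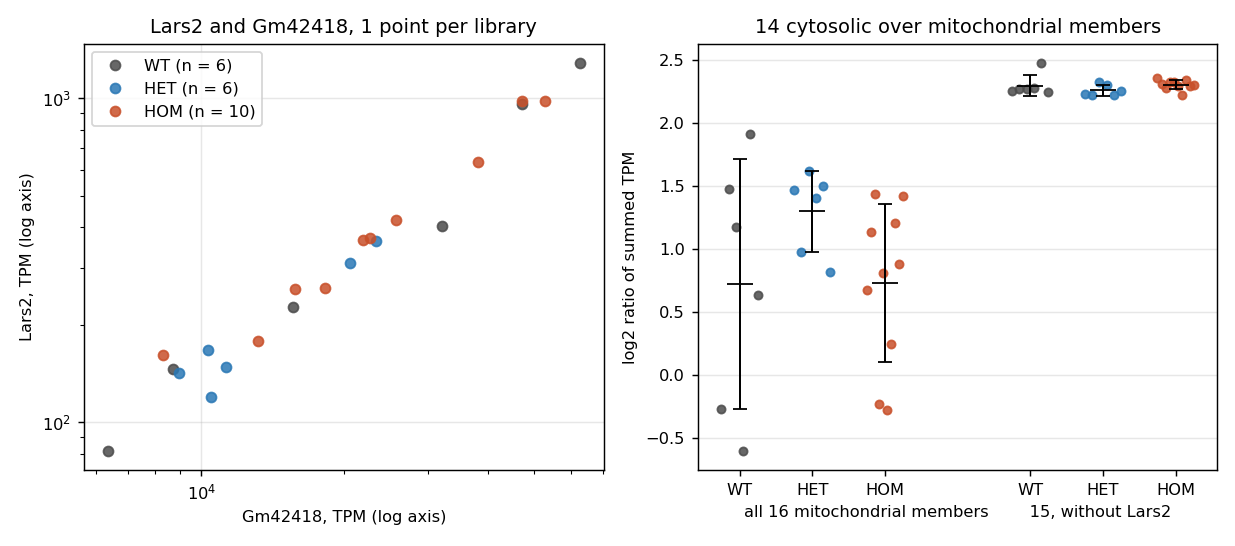
Left, TPM of Lars2 against TPM of Gm42418 on log axes with 1 point per library; right, log2 ratio of the summed TPM of 14 cytosolic to that of the mitochondrial synthetases in each library, with mean and SD, for all 16 mitochondrial genes and for 15 without Lars2. The libraries follow 1 line on the left across genotypes, and on the right the spread in WT falls from an SD of 0.995 to 0.087 once Lars2 is left out.

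The balance of these cytosolic to mitochondrial members was compared as the log2 ratio of summed TPM per library, as a description with no test. The 6 cytosolic synthetases linked to dominant neuropathy are not in the cytosolic sum. Aars2, Hars2, Mars2, Wars2 and Yars2 are in the mitochondrial one. Kars, which serves both compartments, was counted as cytosolic. The ratio is thus not that of the 2 compartments as wholes. With all members it was 0.719 in WT (SD 0.995, n = 6, -0.605 to 1.913), 1.294 in HET (SD 0.323, n = 6, 0.811 to 1.615) and 0.726 in HOM (SD 0.629, n = 10, -0.283 to 1.43), with wide overlap. Without HOM library 3 the HOM mean was 0.648. With Lars2 left out, a choice made after seeing the data, the ratio was 2.294 in WT (SD 0.087), 2.256 in HET (SD 0.0442) and 2.302 in HOM (SD 0.0376). Off the log scale these are 4.90, 4.78 and 4.93 for the members summed here. The HOM mean lay between the lowest and highest WT libraries, but only WT library 5, at 2.47, was above it. The other WT libraries had 2.241 to 2.271, and the HOM libraries 2.218 to 2.355, so the ranges overlapped.

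The sums behind the ratio were 957.5 TPM in WT (SD 16.3), 997.3 TPM in HET (SD 39.3) and 1014 TPM in HOM (SD 40.3) for the cytosolic genes. For the mitochondrial genes without Lars2 they were 195.5 TPM (SD 10.9), 209.0 TPM (SD 14.2) and 205.8 TPM (SD 9.36). WT was lowest in both, and the libraries overlapped in each. Genes in general were also higher than in WT on this scale. On log2(TPM + 1) the median difference from WT over all genes was 0.037 in HOM and 0.042 in HET. What part of the difference in sums is shared with all genes was not tested.

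Other genes of tRNA charging were read from the same fit. The 6 cytosolic synthetases linked to dominant neuropathy (Yars, Gars, Aars, Hars, Mars and Wars) were all higher in HOM than in WT, with a median log2 fold change of 0.130. Wars, the cytosolic tryptophan enzyme, was the 1 that passed, rising from a mean of 122.6 CPM to 137.7 CPM, a log2 difference of 0.17 (SE 0.0316) with an edgeR adjusted p of 0.0209, whereas its mitochondrial partner Wars2 had a negative difference. In HET against WT, Wars had 0.02 (adjusted p = 1), and in HOM against HET 0.15 (adjusted p = 0.0588).

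No gene of the remaining lists passed in HOM against WT. Of the 5 elongation factor genes that deliver charged tRNA to the ribosome 3 were higher (median 0.025), with the smallest p for Eef1d (0.04, adjusted p = 0.825). Of the 8 mitochondrial charging and delivery partners 4 were higher (median 0.003), with the smallest p for Mtfmt, which formylates the charged initiator tRNA (-0.09, adjusted p = 0.815). Of the 9 deacylases and synthetase-like genes 5 were higher (median 0.013), with the smallest p for Dtd2, a deacylase (-0.10, adjusted p = 0.815). Of the 10 genes of tRNA maturation and export 6 were higher (median 0.017), with the smallest p for Xpot, the export receptor (0.07, adjusted p = 0.704). All these adjusted p-values are edgeR's.

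Promoter sequence was available for 26 of the 33 members in the RefSeq table (GRCm38.p6, 250 bases before to 50 after each start), and Cars, Rars and Vars were not among them. It was searched on both strands for TGATGNAA, the C/EBP-ATF response element core that ATF4 binds, and for CGCATGCG, the core of the site of NRF1, a factor known for nuclear genes of mitochondrial function. The windows are shown because they let the cytosolic and mitochondrial promoters be compared for both motifs, which are in capitals. The first motif was in 2 of 9 cytosolic promoters (22.2%), 0 of 14 mitochondrial promoters and 4.51% of the 27025 promoters in the table.
Iars (chr13:49682126-49682155, + strand): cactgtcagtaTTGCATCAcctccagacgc
Tars (chr15:11399659-11399688, - strand): gggccaggagtcccgTTGCATCAgctggtt

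Both are read 5′ to 3′ along the gene, where the element appears as its reverse complement, at bases 8 to 15 after the start in Iars and at -15 to -8 in Tars. The NRF1 core was in 2 of 14 mitochondrial promoters (14.3%), 0 of 9 cytosolic promoters and 2.07% of all promoters.
Vars2 (chr17:35667593-35667654, - strand): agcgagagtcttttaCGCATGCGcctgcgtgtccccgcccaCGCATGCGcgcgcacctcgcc
Wars2 (chr3:99141012-99141049, + strand): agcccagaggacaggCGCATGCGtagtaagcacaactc

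In Vars2 the core stands at -47 to -40 and again at -21 to -14, and in Wars2 at -63 to -56. Iars and Tars had log2 differences of 0.07 each in HOM against WT, and Vars2 and Wars2 of 0.04 and -0.13, none of which passed the test. A match is a description of these letters only.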

How the data were processed

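Per the labels' protocols, RNA of spinal cord was extracted with TRIzol and miRNeasy columns, and polyA-selected KAPA libraries were read from both ends. For each library the authors deposited a gene table of RSEM with expected counts and TPM, per the file headers. RSEM 1.2.12 and Bowtie2 2.2.0 are named in the submitters' processing notes, with build, annotation and strandedness not given in the sources used here. RSEM shares reads that fit several genes, so 14.41% to 16.23% of the deposited expected counts per library were not whole, and they were rounded. Deposited TPM values, scaled by the authors to length and a total of 1000000, served for levels between genes and 1 kind of alternative. FPKM was not used. No 2 libraries held identical values (0 pairs).

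Members were matched by symbol through Ensembl IDs (37607 of 38924 IDs had a symbol). The filter of edgeR 4.0.16 (R 4.3.3) on low counts left 16974 genes. TMM scaling and a robust quasi-likelihood fit of all 22 libraries with 3 genotype groups gave 3 comparisons, with Benjamini-Hochberg adjustment over all genes and a threshold of 0.05. Intervals are at 95%. The script was tested on simulated data with known differences in HOM against WT, 50 genes at each size. It called 38% of genes at a true log2 difference of 0.2, 92% at 0.4, 96% at 0.8 and 72% at -0.4. Of unchanged genes it called 0.018%. The members' own estimates in that comparison ran from -0.18 (Lars2, SE 0.538) to 0.19 (Cars). A member that did not pass may still differ by an amount within its own 95% interval. That interval was -0.06 to 0.08 for Kars and -0.03 to 0.09 for Iars2, but -0.03 to 0.27 for Cars2. CPM is counts per 1000000 after TMM. Alternatives were RLE scaling, DESeq2 1.42.0, no filter, only the groups compared, limma 3.58.1 on log2(TPM + 1) and log2(TPM + 0.1), the title number or the Xist level as a covariate, and leaving out each library.

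Named in full were members with an adjusted p under the threshold, the 2 smallest p per role in HOM against WT and per other comparison, the 3 highest and lowest levels per compartment, and in each further list called genes and the smallest p. The members and lists were chosen with earlier results of these data known. In GENCODE M21, 11 members share exon bases with a gene on the opposite strand, 8 of them with a tested gene (Farsb, Aimp1, Aimp2, Cars2, Ears2, Fars2, Hars2 and Iars2). The others are Cars, the member that passed in HOM against WT, which shares bases with Gm15580, and Nars2 and Vars2. Their overlapping genes were not among those tested. Without a known strand setting the reads of all 11 cannot be told apart from those of the overlapping gene. The marker Slc18a3 is not analysed here.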

Additional observations from a re-analysis of the deposited data

Results flagged for a closer look

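Over 105 groups of libraries (33 members and the compartment ratio with and without Lars2, each in 3 genotypes), 4 had a library far from the others, where chance gives about 1 in 20. Lars was 57.03 CPM in HOM library 8, with the other HOM libraries from 43.58 to 50.1 CPM. Rars2 was 15.51 CPM in HET library 1, with the others from 12.69 to 13.37 CPM. Yars2 was 15.16 CPM in the same HET library, with the others from 13.41 to 14.01 CPM. The log2 ratio of summed cytosolic to mitochondrial TPM without Lars2 was 2.47 in WT library 5, with the others from 2.241 to 2.271.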

How the results depend on the processing

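Cars in HOM against WT passed under all 8 other settings (adjusted p from 4e-06 with DESeq2 to 0.0496 with limma on log2(TPM + 0.1)) and in all 22 fits without 1 library (0.00112 to 0.014, log2 0.185 to 0.204). DESeq2 called 28 genes in HOM against WT and 76 in HOM against HET, where edgeR called 16 and 18. In HOM against HET limma on log2(TPM + 1) called 11 genes, the title number as a covariate left 10, and leaving out 1 library gave 10 (without HET library 3) to 39 (without HOM library 10), with 11 without HOM library 1 or 4. Members called there were 2 with DESeq2 (Rars and Cars) and 0 to 1 when 1 library was left out. On log2(TPM + 1) and log2(TPM + 0.1) the mitochondrial median was 0.081 and 0.085 in HOM against WT and 0.066 and 0.070 in HET against WT, and the cytosolic median in HET against WT was 0.059 on both. The median over all genes moved to 0.037 and 0.043 in HOM against WT and to 0.042 and 0.048 in HET against WT on those scales. Against the mitochondrial sum, the log2 ratio for complex members alone was -0.879 in WT, -0.318 in HET and -0.879 in HOM. In HET it was 0.722 for members outside the complex and 0.809 in CPM. Without Lars2, added after seeing the data, it was 2.294, 2.256 and 2.302 in TPM and 2.156, 2.153 and 2.186 in CPM. Of 2178 single-member values without 1 library, 1 passed that had not and 92 changed the sign of a difference that had not passed. Of 792 under other settings the counts were 2 and 58. None of these ended or reversed a call. The median of the scaffolds in HOM against WT was -0.031 with the title number as a covariate. The cause of these shifts was not tested. No paired analysis was possible because the labels give no replicate numbers shared between genotypes. The median 95% interval was 0.119 either side for mitochondrial genes and 0.067 for cytosolic genes, which limits what could be detected in each, and the part of depth in this was not tested.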
